A study of Oryza sativa with 3 samples.

Results

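The trehalose phosphate phosphatases TPP1 to TPP10 of rice were followed on 3 expression arrays of shoot tips. Members were the genes whose symbol or synonym, without an Os prefix, is exactly one of these 10 names, and each was read from the probe sets, the groups of short probes on the array, that the platform annotation gives to that gene alone. The names led to 10 genes, because TPP2 belongs to 2 of them and TPP5 to none. Of these, 9 genes had a probe set, out of 17905 genes on the array, with 11 probe sets between them. The members were chosen by name, but the family was proposed with log2 values of these same 3 arrays in view, so all values are given as a description with no test.

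Each array held RNA from shoot tips of the cultivar Hitomebore, a japonica rice, and the labels call the 3 samples biological replicates of a single group, CK. The sources used here give neither the meaning of CK nor the number of seedlings in a sample. Germination took place in water, in darkness, for 2 days at 28 °C, and the seedlings were then grown for about 48 h at 26 °C under 16 h of daily light. The growth protocol mentions 2 genotypes, of which the other was not analysed here. There is no second group, so no condition can be compared, and differences between arrays describe single samples.

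Trehalose is a disaccharide that plants make by way of trehalose 6-phosphate. A synthase joins glucose 6-phosphate to the glucose of UDP-glucose, and a trehalose phosphate phosphatase then removes the phosphate group. In plants trehalose 6-phosphate is known as a signal of sucrose supply and an inhibitor of the kinase SnRK1, so the phosphatases act at the point where this signal is taken away. In rice, TPP1 is known from chilling and salt responses and TPP7 from germination under water.

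One of the 10 genes carried the name without the function. LOC4330237 is listed as TPP2 and TPPII, the usual abbreviation of tripeptidyl peptidase II, a large protease, and has no OsTPP synonym, whereas every other gene found has one. It is given apart from the family, which leaves 9 trehalose phosphate phosphatase genes. No probe set of the annotation used here was paired with TPP8 (LOC4340524), alone or with other genes, so the family was measured through 8 genes and 9 probe sets.

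Of these 8 genes, TPP1, TPP2, TPP7 and TPP9 gave signal above background on all 3 arrays, TPP4 lay at the limit, and TPP3, TPP6 and TPP10 lay below it throughout. Values are log2 probe set values after robust multi-array averaging, and background was taken as the highest of 17 Tag control probe sets, which read 4.98, 4.88 and 4.97 on replicates 1, 2 and 3. By this ceiling 4 of 8 family members were above background on all arrays, against 81.3% of all genes, and 3 of 8 were below it on all arrays, against 15.4% of all genes. The family's median level was 5.59 against 8.28 over all genes, both as log2 signal. Brightness depends on the probes as well as on RNA, so these medians do not rank amounts of RNA, and in whole tissue fewer cells that use a gene and less RNA per cell cannot be told apart.

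**Figure D1:**
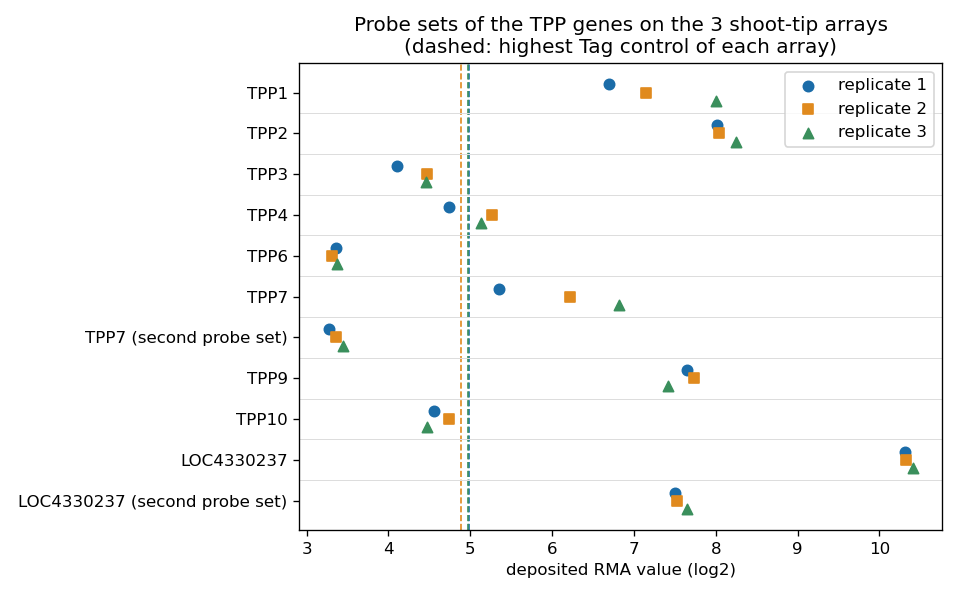
Deposited log2 value of each of the 11 probe sets of the TPP genes (rows) on replicates 1, 2 and 3 (symbols), with a dashed line at the highest Tag control of each array. TPP1, TPP2, TPP9, LOC4330237 and 1 of the TPP7 probe sets lie right of all 3 lines, TPP4 straddles them, and only TPP1 and TPP7 have widely spaced symbols.

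TPP2 and TPP9 were well above background and nearly level between the samples. TPP2 (LOC4349333), characterized as an active trehalose 6-phosphate phosphatase, read 8.02, 8.04 and 8.25 on replicates 1, 2 and 3, or 8.10 ± 0.13 (SD, n = 3). Replicate 3 was the highest by a small margin, and 39.6% of all genes had a range between arrays at least as large as its 0.23. TPP9 (LOC4332996), named as a trehalose phosphate phosphatase, read 7.65, 7.74 and 7.41, or 7.60 ± 0.17 (SD, n = 3). Here replicate 3 was the lowest and replicate 2 the highest. A range as large as its 0.33 was found in 23.4% of all genes, and in 27.4% of those above the ceiling on all arrays. The typical gene had an SD of 0.12, so both were close to the common spread of these arrays.

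TPP1 and TPP7 were also above background in every sample, but differed between the samples by more than 1 log2, that is by more than 2-fold. TPP1 (LOC4330221), the chilling-responsive phosphatase, read 6.70, 7.15 and 8.00 on replicates 1, 2 and 3, or 7.28 ± 0.66 (SD, n = 3). It was 2.46-fold higher on replicate 3 than on replicate 1 and 1.80-fold higher than on replicate 2. Replicates 1 and 2 lay closer together, with a 1.37-fold difference.

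TPP7 (LOC4346885), the gene known from anaerobic germination, read 5.35, 6.22 and 6.82 on replicates 1, 2 and 3, or 6.13 ± 0.74 (SD, n = 3). It was 2.78-fold higher on replicate 3 than on replicate 1 and 1.52-fold higher than on replicate 2. Here replicate 1 was the one that stood farther off, 1.82-fold below replicate 2. On replicate 1 TPP7 lay only 0.37 above the ceiling, where this kind of averaging compresses values.

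Both genes thus had replicate 3 highest and replicate 1 lowest, an order shared by 26.4% of all genes above background on all arrays. Of the family, 2 of 8 members had a range over 1 log2 after values below the ceiling were set to it, against 0.765% of all genes, or 137 genes. Ranges as large as that of TPP1 were found in 0.402% of all genes and as large as that of TPP7 in 0.357%. The family was proposed with these values known, so nothing is read from the contrast of these shares. Taken as the value on replicate 3 minus the mean of the other arrays, the difference was 1.08 for TPP1 and 1.04 for TPP7, beside a median of 0.068 over all genes. The same difference was 0.22 for TPP2 and -0.29 for TPP9, so the members above background did not move as 1 group.

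**Figure D2:**
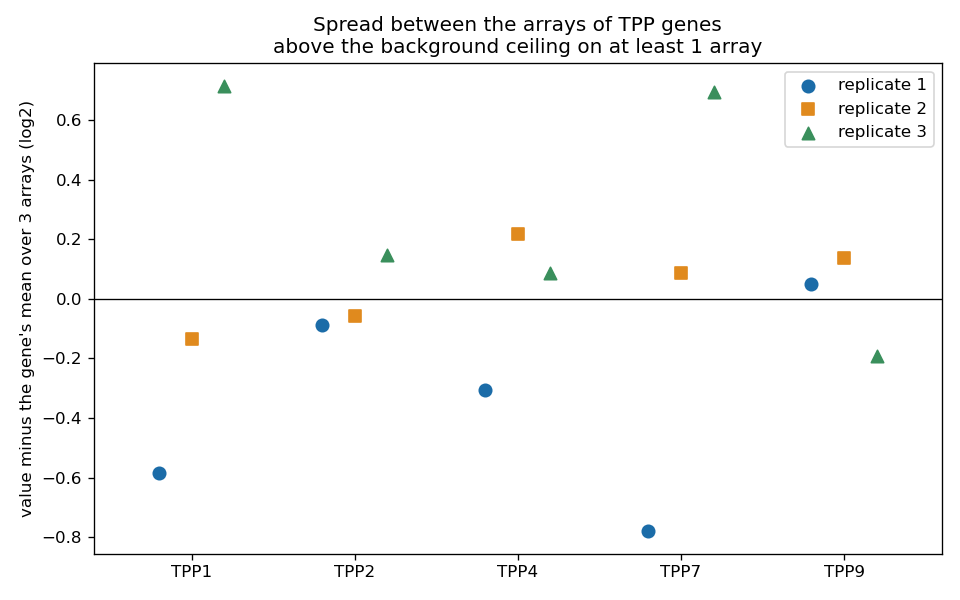
Value on each array minus the gene's own mean over the 3 arrays (log2, vertical axis) for the 5 TPP genes above the background ceiling on at least 1 array, with a symbol for each replicate. TPP1 and TPP7 spread over 1.30 and 1.47 log2, TPP2, TPP4 and TPP9 over 0.53 or less, and replicate 3 is highest for TPP1, TPP2 and TPP7 and lowest for TPP9.

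The 2 genes rest on unequal evidence. TPP1 has a single probe set of the plain kind. TPP7 was read from a probe set whose ID ends in _s_at, a kind that can bind transcripts of several related genes, while its other probe set read 3.27, 3.36 and 3.44, below the ceiling on all arrays. The second probe set had a range of only 0.17, and its values under background have no order that can be read. Such disagreement is common on this array: among 3444 genes with several probe sets, 40.8% had 1 above the ceiling on all arrays and another below it on all arrays. Without probe sets ending in _x_at or _s_at, TPP7 would count as below background and TPP1 alone would have a range over 1 log2. Which TPP transcript the brighter TPP7 probe set follows was not tested.

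**Figure D3:**
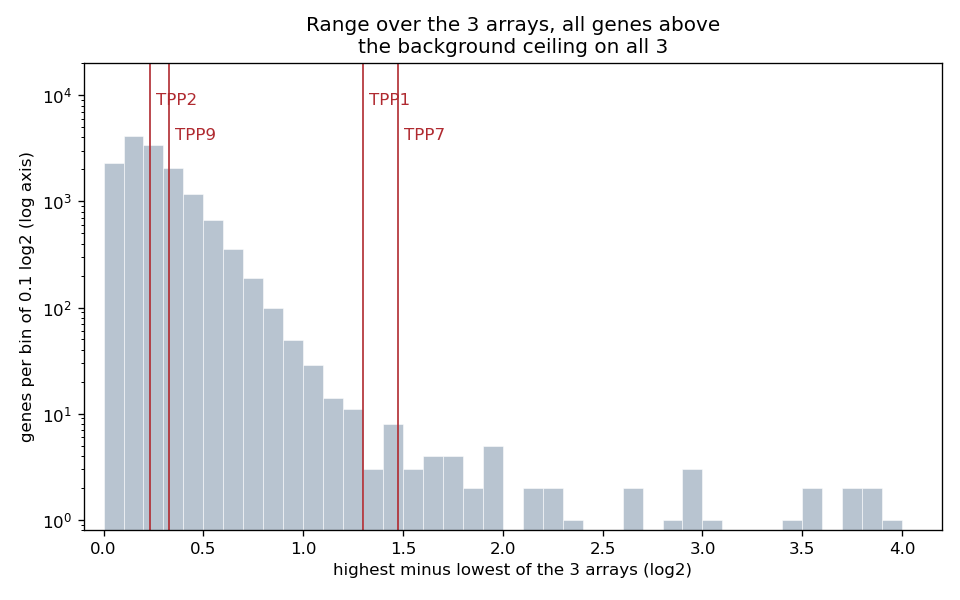
Number of genes (log axis) by the range between the highest and lowest of the 3 arrays (log2, bins of 0.1) for the 14556 genes above the background ceiling on all arrays, with a vertical line at each of the 4 TPP genes among them. TPP2 and TPP9 fall within the bulk of genes at 0.23 and 0.33, and TPP1 and TPP7 in the thin tail at 1.30 and 1.47.

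The remaining members gave little or no signal. TPP4 (LOC4330753) read 4.74, 5.27 and 5.13, so it was below the ceiling on replicate 1 and above it by at most 0.38 on the others. TPP10 (LOC4343248) read 4.56, 4.74 and 4.48, and TPP3 (LOC4343959) read 4.11, 4.47 and 4.46. TPP6 (LOC107275814), read from another _s_at probe set, was the dimmest at 3.36, 3.31 and 3.37. For these last 3 genes the differences between arrays lie under background and have no order that can be read. Their transcripts were not detectable with these probe sets, which does not show that they were absent.

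LOC4330237, the gene that shares only the letters TPP2, was bright and steady. Its probe sets read 10.31, 10.33 and 10.41 for the brighter and 7.50, 7.52 and 7.64 for the other. Both were above the ceiling on all arrays with ranges of 0.096 and 0.14. A search by symbol that took this gene for TPP2 would give 10.35 as its mean level in place of 8.10.

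The genes beside TPP1 and TPP7 on the chromosome, by the gene order of assembly ASM3414082v1, had no range over 1 log2. Such a range was rare on these arrays, at 0.765% of all genes, so nothing is read from its absence in neighbours. The nearest measured gene after TPP1, LOC4330222, read 5.36, 5.47 and 5.41, and the nearest before it, LOC4330217, which is 6 genes away, lay below the ceiling on all arrays. The neighbours of TPP7, LOC4346884 and LOC4346886, read 11.85, 11.84 and 11.78, and 3.42, 3.34 and 3.47, the latter below the ceiling. Over all 8 members, the 16 nearest measured neighbours had ranges of at most 0.35 once values below the ceiling were set to it. For neighbours below the ceiling on all arrays, that range is only the difference between the ceilings, 0.099.

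Among the 137 genes with a range over 1 log2, 95 were highest on replicate 3, as TPP1 and TPP7 were. Likeness was measured as the Euclidean distance between centred values over the 3 arrays, with the ceiling as the lowest value allowed. The genes closest to TPP7, the member with the largest range, were LOC4336765 at a distance of 0.16, LOC4346396 at 0.21 and LOC4326549 at 0.23. LOC4336765 read 5.65, 6.40 and 7.23. For TPP1, added after the values were seen, they were LOC4326549 at 0.093, LOC4334449 at 0.099 and LOC4348568 at 0.11. LOC4334449 is MEL1, an Argonaute protein known from rice germ cells, and read 7.38, 7.71 and 8.68. TPP7 was 0.30 from TPP1, and 21 of the other 136 genes lay within 0.25 of TPP1 against 3 for TPP7. With 3 arrays such likeness rests on few values and describes these samples only.

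Other enzymes of trehalose metabolism could not be set beside the family. None of the 17 symbols sought for trehalose 6-phosphate synthases, trehalase and UDP-glucose pyrophosphorylases matched a name in the annotation. The 13 measured sugar signalling genes include SnRK1 kinase subunits, hexokinases and MYBS factors. Their median level was 9.15, against 8.28 over all genes, and 0 had a range over 1 log2, against 0.765% of all genes. Of the 13, 12 were above the ceiling on all arrays, against 81.3% of all genes. The one below it was LOC4326516, a hexokinase gene listed as HXK3 and HXK8, at 4.66, 4.65 and 4.76. The list's median difference on replicate 3 was 0.069, beside 0.068 over all genes. AGPS2, a small subunit of the starch enzyme ADP-glucose pyrophosphorylase and the only measured gene of the starch list, read 11.26, 11.12 and 11.18.

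Genes of low oxygen and of cold or abscisic acid responses, listed for the settings in which TPP7 and TPP1 are known, did not share a single pattern. In the low oxygen list 2 of 5 measured genes had a range over 1 log2, against 0.765% of all genes. These 2 genes were both highest on replicate 3. In all, 4 of the 5 were highest there, beside 8940 of all 17905 genes, and the list's median difference on that array was 0.35. PDC1 (LOC4339066), an enzyme of ethanol fermentation, read 4.04, 3.95 and 9.41, and ADH2 (LOC4350054), an alcohol dehydrogenase, 8.90, 8.55 and 9.76. PDC1 lay below the ceiling on replicates 1 and 2 and ADH2 was lowest on replicate 2, whereas TPP7 was lowest on replicate 1. PDC2 and PDC3 had smaller ranges of 0.48 and 0.58, and on replicate 3 PDC2 was highest and PDC3 lowest. The amylase gene RAMY3D, known to be induced by sugar starvation, was below the ceiling on all arrays. RAMY3D is among the 4 genes highest on replicate 3, but its values under background have no order that can be read.

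In the cold or abscisic acid list 3 of 14 measured genes had a range over 1 log2, against 0.765% of all genes. This list and the low oxygen list were chosen with earlier results of these data known, so nothing is read from these shares. DREB1A (LOC4347620), a cold-responsive transcription factor, read 4.31, 4.17 and 6.14 and so passed the ceiling on replicate 3 alone. The dehydrins RAB21 (LOC4350454) and RAB16B (LOC4350453) were instead highest on replicate 1, where both TPP genes were lowest, at 10.33 against 6.57 and 6.55, and 7.62 against 5.80 and 5.64. The list's median difference on replicate 3 was -0.030.

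**Figure D4:**
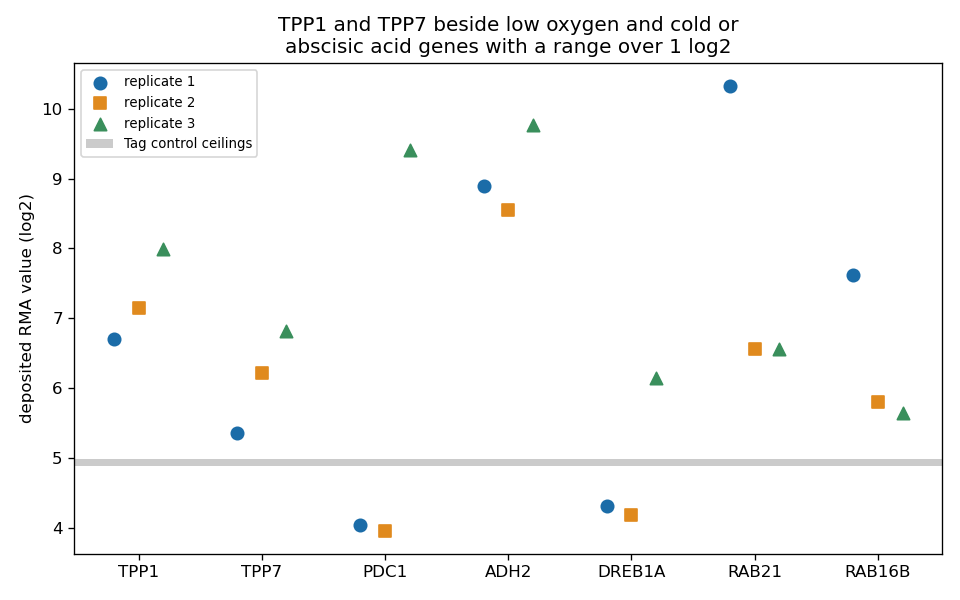
Deposited log2 value of TPP1, the brighter TPP7 probe set and the 5 genes of the low oxygen and cold or abscisic acid lists with a range over 1 log2, on replicates 1, 2 and 3 (symbols), with a grey band over the 3 background ceilings. TPP1, TPP7, PDC1, ADH2 and DREB1A are highest on replicate 3, and RAB21 and RAB16B on replicate 1.

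The arrays also differed in other ways, and whether these bear on a difference seen on 1 sample was not tested. On replicate 3 the 4 ribosomal RNA control probe sets above background averaged 9.59, against 12.05 and 11.73 on replicates 1 and 2. The 9 hybridization controls averaged 10.01 there against 10.77 and 10.50, 1.53-fold lower than the mean of the other arrays. All 5 leaf marker genes were above the ceiling, with means of 11.75 to 14.01, and OSH1, the homeobox gene of the shoot meristem, read 6.25 and 6.47 on replicates 1 and 3 but 3.73 on replicate 2. Endosperm genes had their high values on replicate 2, where 5 of 5 were highest, with a list median difference of 2.96. All 5 leaf genes were also highest on replicate 2, by a smaller list median of 0.26. Of all 17905 genes, 4591 were highest on that array. Of 6 leaf primordium genes 4 were highest on replicate 3, as were 8940 of all 17905 genes, and the list's median difference there was 0.29. Both amylase markers of aleurone and scutellum were below the ceiling, and of 2 root markers LSI1 read 8.94 ± 0.17 (SD, n = 3) and LSI2 lay below it. The part of RNA quality or of tissue makeup in the TPP1 and TPP7 differences was not tested.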

How the data were processed

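RNA from 3 shoot-tip samples of 1 group was measured on Affymetrix arrays from 6 ug of total RNA, per the labels' protocols. The authors deposited log2 values per probe set, for which the submitters' processing notes name RMA and Affymetrix Expression Console. The sources used here give no version, setting or genome build. RMA corrects for background, equalizes the distributions of the arrays and summarizes probes, so overall differences in brightness are removed and low values compressed.

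Of 57381 probe sets, 123 were controls. The platform annotation gave 22436 probe sets 1 gene, and the others were not used. Names came from symbols and synonyms of ASM3414082v1. A gene was represented by its probe set with the highest mean. No model was fitted, since there is 1 group, and the number of arrays limits precision. The calculations used Python 3.11.15 and pandas 2.3.3. Of these, only the ranges, ceiling calls and array differences were tested on simulated data.

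Members, lists and naming rule were chosen with earlier results of these data known. All members were named, the genes of the sugar signalling, low oxygen and cold or abscisic acid lists with a range over 1 log2, at most 5 a list, and the 3 genes most like the member of largest range. Genes close to TPP1, chromosome neighbours, LOC4326516, AGPS2, PDC2, PDC3, RAMY3D, OSH1, LSI1 and LSI2 were added after their values were seen. OsSK1, OsSK2, OsbZIP11 and a second OSK1 left the lists because their synonyms or chromosomes show other genes than those meant. Alternatives were averaged probe sets, no _x_at and _s_at probe sets, each replicate left out, repeated quantile normalization, another ceiling, and values under the ceiling used as deposited or raised to it.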

Additional observations from a re-analysis of the deposited data

How the results depend on the processing

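The count of trehalose phosphate phosphatase genes above background was 4 in the values reported and 3 to 5 under every alternative run. The 2 genes with a range over 1 log2 became 1, TPP1, when a gene's probe sets were averaged and without _x_at and _s_at probe sets. The count was 0 to 2 when a replicate was left out: 0 without replicate 1 or without replicate 3, and 2 without replicate 2, so it rests on both of those arrays. The family's median level of 5.59 was 4.90 with averaged probe sets, 5.05 without _x_at and _s_at probe sets, and 5.39 to 5.86 with a replicate left out. The level of TPP7 was 4.74 and 3.36 under the first 2 of these settings. Its difference on replicate 3 fell from 1.04 to 0.58 and 0.12 under them, and that on replicate 1 went from -1.17 to -0.65 and -0.13. Without _x_at and _s_at probe sets the family had 7 genes, since TPP6 has no other probe set. The family's median difference on replicate 2, 0.16, was -0.090 with the ceiling as a floor, and -0.025 without replicate 1. With that floor the differences of genes below it also changed sign, for TPP10 on replicates 1, 2 and 3 (0.056, -0.093 and 0.037) and for TPP3 on replicates 1 and 2 (0.056 and -0.093), since such values are then the ceilings themselves. The trehalose pathway list gave no value, as none of its symbols matched. No paired analysis was possible because there is 1 group. Signal near background limits what can be said of TPP3, TPP4, TPP6 and TPP10.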
